A study of Mus musculus with 38 samples.

Results

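Genes of amino acid breakdown and of the urea cycle were followed in livers of mice whose hepatocytes lacked the insulin receptor alone, or both that receptor and FoxO1, a transcription factor. The set was a list of 39 gene symbols of nitrogen disposal and of the catabolic routes of tyrosine, tryptophan, histidine, lysine, proline, serine, glutamine, glyoxylate, methionine and the branched-chain amino acids. Of these, 36 were measured among 22485 genes in all, each by its probe of highest mean, and no probe was annotated to Sds, Sdsl or Gls2. The groups were LIRFKO mice (floxed alleles of the insulin receptor and FoxO1 with albumin-Cre; 3 after glucose, 4 refed, 3 fasted), IR/FoxO1 floxed mice (3 refed, 3 fasted), LIRKO mice (floxed insulin receptor with albumin-Cre; 3 after glucose, 4 refed, 3 fasted) and IR floxed mice (3 after glucose, 4 refed, 4 fasted). The 37 mice were males aged 11 to 12 weeks, and their background was mixed: the floxed FoxO1 allele came from FVB/N, and the floxed insulin receptor and albumin-Cre from C57Bl/6. Every mouse had been fasted, for which the labels give both overnight and 24 h. Refed mice were killed 6 h after return to regular food and glucose mice 60 min after feeding of glucose (dextrose). Albumin-Cre acts in hepatocytes, so the other cells of the liver keep both genes, and whole liver was sampled. Values are log2 intensities of single array channels, differences are given ± SE from a limma fit that also holds dye and array (so they can depart a little from those of the printed values), and a gene changed where its p, adjusted over all genes by the Benjamini-Hochberg method, was under 0.05.

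Liver cells strip nitrogen from amino acids and burn or convert the carbon skeletons, and the urea cycle turns the released ammonia into urea. During fasting, glucagon and glucocorticoids favour these routes, which feed gluconeogenesis, and insulin opposes them after a meal. FoxO1 is a transcription factor that insulin signalling excludes from the nucleus, and the comparison of mice lacking the receptor alone with mice lacking both asks which effects of receptor loss depend on it. In bulk liver, fewer cells of a type and less RNA per cell cannot be told apart.

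Afmid, Prodh, Cbs and Agxt2 were the 4 members of smallest p that changed in the same direction in at least 2 comparisons. All 4 were higher in LIRFKO than in LIRKO livers in each state. Cbs, unlike the others, was not called in LIRKO against IR floxed livers. Their promoters are shown. They are RefSeq sequences of build GRCm38.p6, from 250 bases before to 50 bases after the annotated start, 5′ to 3′ on the strand of the gene, with matches to the searched motifs in capitals. Afmid lies at chr11:117825669-117825968 (plus strand), Prodh at chr16:18089141-18089440 (minus strand), Cbs at chr17:31637156-31637455 (minus strand) and Agxt2 at chr15:10358283-10358582 (plus strand, the first of its overlapping windows).
Afmid: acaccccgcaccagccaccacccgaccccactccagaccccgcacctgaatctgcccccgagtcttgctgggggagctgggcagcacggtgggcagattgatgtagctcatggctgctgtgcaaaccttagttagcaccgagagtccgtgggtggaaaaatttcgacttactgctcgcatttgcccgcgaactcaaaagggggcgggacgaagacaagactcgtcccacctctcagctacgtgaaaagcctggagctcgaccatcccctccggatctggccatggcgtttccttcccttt
Prodh: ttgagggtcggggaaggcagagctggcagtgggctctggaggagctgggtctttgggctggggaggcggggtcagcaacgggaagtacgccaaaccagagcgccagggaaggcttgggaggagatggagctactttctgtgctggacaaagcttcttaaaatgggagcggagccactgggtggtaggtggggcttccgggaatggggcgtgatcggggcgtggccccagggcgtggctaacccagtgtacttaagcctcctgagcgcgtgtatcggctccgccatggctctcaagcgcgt
Cbs: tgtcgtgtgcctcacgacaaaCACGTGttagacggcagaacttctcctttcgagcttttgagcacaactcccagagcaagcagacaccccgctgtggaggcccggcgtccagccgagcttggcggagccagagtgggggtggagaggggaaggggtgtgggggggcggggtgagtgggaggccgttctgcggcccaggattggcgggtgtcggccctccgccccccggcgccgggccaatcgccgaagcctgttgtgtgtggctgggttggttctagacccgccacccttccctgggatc
Agxt2: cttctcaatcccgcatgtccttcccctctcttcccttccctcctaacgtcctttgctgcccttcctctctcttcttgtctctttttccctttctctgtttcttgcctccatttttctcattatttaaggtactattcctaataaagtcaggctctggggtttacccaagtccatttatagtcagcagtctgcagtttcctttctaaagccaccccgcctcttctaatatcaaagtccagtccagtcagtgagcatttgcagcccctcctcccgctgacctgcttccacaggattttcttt
Windows were at hand for 29 of the 36 measured members, and 7 (Cps1, Asl, Arg1, Kynu, Mat1a, Cth and Gpt) had none. The capitals in the Cbs window are the E-box CACGTG, which starts 229 bases before the annotated start. On both strands, the forkhead letters TGTTTAC that FoxO1 can bind were found in 0 of the 29 members, against 3.65% of all 32851 windows, and the cAMP response element TGACGTCA in 0, against 1.79%. The shorter TGACG, which lies within the cAMP response element, was found in 4 members (13.8%: Aass, Ftcd, Gstz1 and Nags). Some members have more than 1 window, and TGACG was in 12.5% of their 32 windows, against 20.8% of all windows. CACGTG was found in 2 members (6.9%: Ass1 and Cbs) and 6.25% of their windows, against 7.15%. The C/EBP-ATF element TGATGCAA was found in 1 member (3.45%: Got1) and 3.12% of their windows, against 0.895%. These counts describe letters in a 300-base window and nothing outside it.

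Column medians of the 37 libraries lay between 5.72 and 5.78, and each library was a separate mouse. Insr ran from 6.30 to 7.80 in LIRKO mice, against 7.77 to 9.04 in IR floxed mice, and Foxo1 from 6.07 to 7.12 in LIRFKO mice, against 9.25 to 10.57 in the IR/FoxO1 floxed mice other than IRF.fl_Fast_523. That library, labelled IR/FoxO1 floxed fasted, had Foxo1 at 6.77 and Insr at 6.90, and results that use its group are also given without it where the call changes. Pancreatic acinar markers, of which 4 of 5 were measured, summed to 12.89, 13.79 and 13.94 (log2 of the summed intensity) in IR.fl_Fast_486, IR.fl_GTT_659 and IRF.KO_Refed_478, against 8.03 to 10.20 elsewhere. The hepatocyte marker Alb was lowest in IR.KO_Refed_564 (14.10) and IR.KO_GTT_667 (14.54), against 15.28 to 15.97 elsewhere. Glucose mice carry higher mouse numbers than all others, so glucose and anything that goes with mouse number cannot be told apart. Mouse numbers also do not overlap between refed and fasted mice of the IR/FoxO1 floxed and LIRKO groups. The same is true of LIRFKO and LIRKO mice refed and after glucose, and of the floxed lines refed. The same limit holds in those comparisons.

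The set was well above the dim end of the array: all 36 members had a mean above the median gene mean (6.17), and the lowest member mean was 9.25. Their SD within groups had a median of 0.369 over the members, from 0.2 for Gstz1 to 0.838 for Bhmt. Bhmt reached the ceiling of the scanner range in 18 of 37 libraries, Ass1 in 4 and Aass in 1, so differences of Bhmt are lower bounds where a whole group lies there and are limited by the ceiling where part of a group does. Changes were found mainly between genotypes, and 9 members (Otc, Tat, Kmo, Amdhd1, Ftcd, Agxt, Mat1a, Bckdhb and Gpt) changed in no comparison. The shares of all genes given below include genes under the median gene mean, where no member lies. Shares among brighter genes alone are not given.

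**Figure D1:**
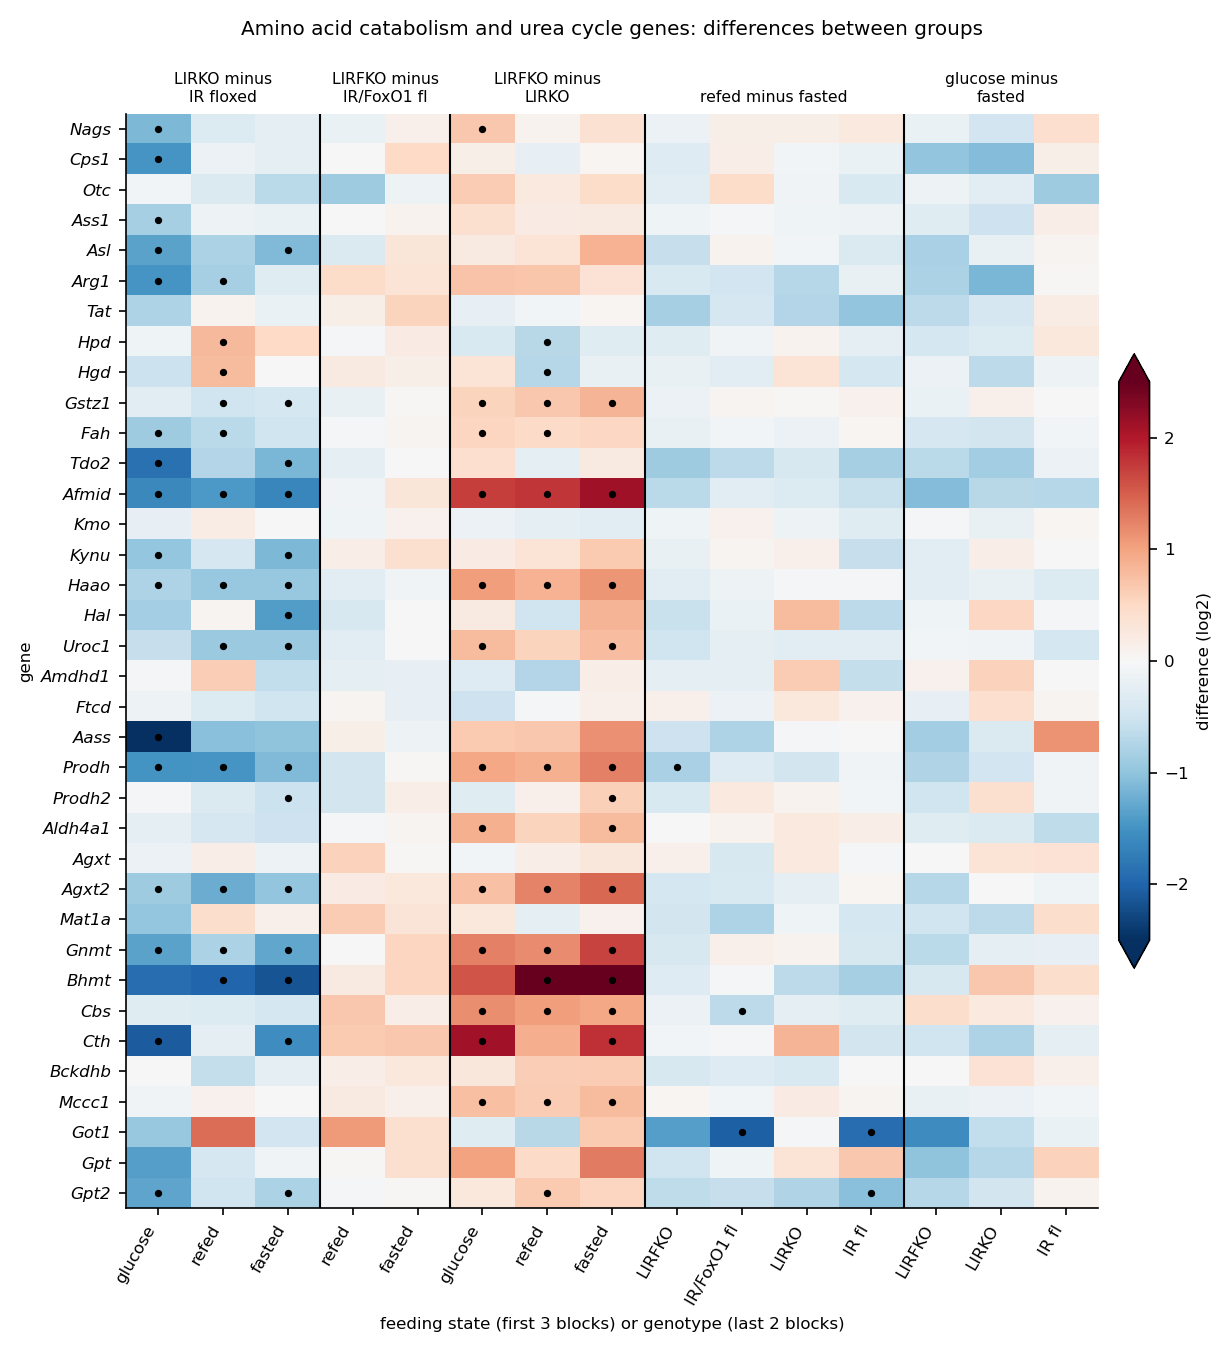
Differences in log2 intensity (colour) for the 36 measured members (rows, by route) in 15 comparisons (columns), with a dot where the adjusted p was under 0.05. The LIRKO minus IR floxed columns are mostly blue, the LIRFKO minus LIRKO columns mostly red, and the LIRFKO minus IR/FoxO1 floxed columns hold 0 dots.

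Many amino acid catabolic genes were lower in LIRKO than in IR floxed livers, in all 3 feeding states. In fasted LIRKO against fasted IR floxed livers 15 of 36 members fell and 0 rose (median -0.50), where 3.92% of all genes fell and 4.14% rose (8.06% changed). In refed mice 10 fell and 2 rose (median -0.39), against 4.66% and 6.95% of all genes (11.6% changed), and after glucose 16 fell and 0 rose (median -0.86), against 3.91% and 4.39% (8.3% changed). Altogether 21 members fell in at least 1 state, and Afmid, Haao, Prodh, Agxt2 and Gnmt fell in all 3. With only the compared groups in the fit, 1, 7 and 0 members passed in fasted, refed and glucose mice, where 1.04%, 6.84% and 0.0222% of all genes did. Here and below, that fit leaves few degrees of freedom and also holds no array term. The fasted count was 7 without IR.KO_Fast_550, 8 without IR.KO_Fast_505 and 8 without IR.fl_Fast_486, and 9 without the 3 libraries highest in acinar markers, an alternative chosen after seeing the data. Without the 2 libraries lowest in Alb, likewise added, 10 members changed refed and 15 after glucose.

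In LIRFKO livers, which lack FoxO1 as well, many members stood above their LIRKO level. In fasted mice 13 of 36 members were higher in LIRFKO than in LIRKO and 0 lower (median 0.65), where 3.29% of all genes were higher and 3.23% lower (6.52% changed). In refed mice 11 were higher and 2 lower (median 0.41), against 3.66% and 4.43% (8.09% changed), and after glucose 13 were higher and 0 lower (median 0.48), against 3.85% and 3.73% (7.57% changed). Gstz1, Afmid, Haao, Prodh, Agxt2, Gnmt, Cbs and Mccc1 were higher in all 3 states. These comparisons use the same LIRKO mice as those against IR floxed mice, and LIRFKO and LIRKO come from different crosses, so line and FoxO1 cannot be told apart here. With only the compared groups in the fit 1, 14 and 0 members passed in fasted, refed and glucose mice (0.196%, 8.21% and 0.68% of all genes). The fasted count was 7 without IRF.KO_Fast_518 and 8 without IR.KO_Fast_550, and the glucose count was 3 without IRF.KO_GTT_725, 6 without IR.KO_GTT_697 and 8 without IRF.KO_GTT_726.

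Against their own floxed line, LIRFKO livers differed in 0 of 36 members by limma in either state. The fasted floxed group includes IRF.fl_Fast_523, with Foxo1 at 6.77 and Insr at 6.90. The other mice of that group had Foxo1 at 10.57 and 10.17 and Insr at 8.27 and 8.14, so the fasted values below may be affected by it. The fasted count stayed at 0 with each of the 6 libraries left out in turn. The median difference was 0.13 in fasted mice, where 0.00445% of all genes changed and 0 members had an unadjusted p under 0.05, and -0.01 in refed mice, where 0.378% changed and 3 members had one. Of all 22485 genes, 819 had such a p fasted and 2333 refed. Cbs, the first enzyme of transsulfuration, came nearest, with a refed difference of 0.68 ± 0.17 (95% interval 0.34 to 1.02, adjusted p = 0.0643). A p that misses the threshold does not show equal levels: the 95% interval was -0.28 to 0.90 fasted and -0.62 to 0.46 refed for Afmid, and -0.19 to 0.72 fasted and -0.21 to 0.63 refed for Agxt2. The IR/FoxO1 floxed line differed from the IR floxed line in 0 members by limma, refed or fasted, where 0.0845% (0.0712% higher, 0.0133% lower) and 0.0356% (0.0222% higher, 0.0133% lower) of all genes changed. An unadjusted p under 0.05 was found for 4 members refed and 7 fasted, against 1374 and 1682 of all 22485 genes.

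Whether the knockout effect itself differed between the lines was tested as LIRFKO minus IR/FoxO1 floxed, less LIRKO minus IR floxed. In fasted mice it was more positive in the double knockout for 4 members and more negative for 0 (0.449% and 0.485% of all genes, 0.934% changed), and in refed mice for 3 and 0 (0.458% and 0.863%, 1.32% changed). The fasted members were Afmid (1.95 ± 0.36, adjusted p = 0.0044), Gnmt (1.82 ± 0.34, adjusted p = 0.0044), Kynu (1.52 ± 0.33, adjusted p = 0.0185) and Agxt2 (1.24 ± 0.28, adjusted p = 0.0248). The refed members were Agxt2 (1.47 ± 0.27, adjusted p = 0.00305), Cbs (1.03 ± 0.22, adjusted p = 0.0108) and Afmid (1.35 ± 0.34, adjusted p = 0.0444). The refed Afmid call was lost when any of 13 of the 15 libraries was left out (highest adjusted p 0.114 without IR.fl_Refed_562). The fasted Kynu and Agxt2 calls were each lost with any of 7 of the 13 left out (highest 0.114 without IR.KO_Fast_550 for Kynu and 0.106 without IR.fl_Fast_491 for Agxt2). Here and below, the library named beside a lost call is the one that gave the highest adjusted p, and others may lose it too. At least 5 libraries, each left out alone, did so for Gstz1 (6 of 7) and Prodh2 (5 of 7) in fasted LIRKO against IR floxed mice, for Fah (7 of 8), Gpt2 (6 of 8) and Hgd (5 of 8) in refed and Agxt2 and Nags (5 of 6 each) in glucose LIRFKO against LIRKO mice, and for the refeeding calls of Prodh in LIRFKO (6 of 7) and Cbs in IR/FoxO1 floxed mice (5 of 6). The refed Afmid call also failed with slide as a block (0.105), and fasted Kynu without IRF.fl_Fast_523 (0.0642). With only the compared groups in the fit, the refed calls of Agxt2 and Cbs and the fasted calls of Gnmt, Kynu and Agxt2 were lost. Without the 3 libraries high in acinar markers 2 fasted members passed, as they did without IR.fl_Fast_491, IR.KO_Fast_550 or IR.fl_Fast_486, and without IR.fl_Refed_566 the refed count was 5.

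**Figure D2:**
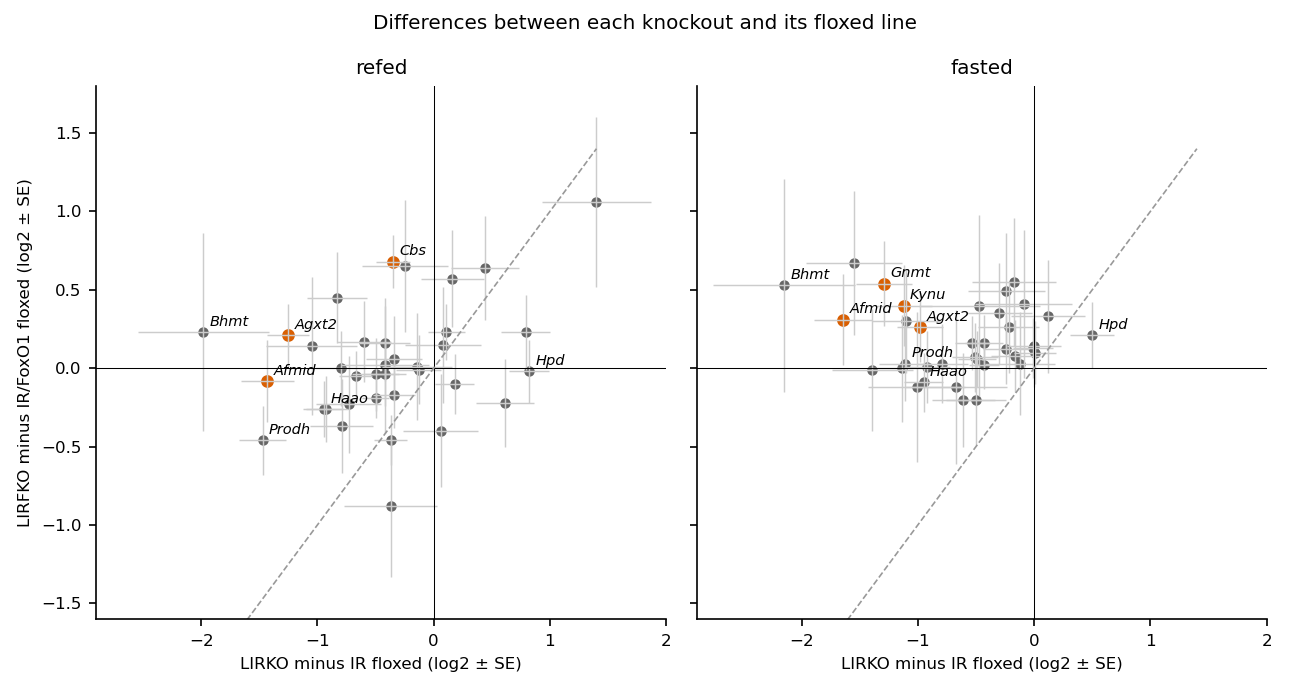
Each point is 1 of 36 members, with LIRKO minus IR floxed on the x axis and LIRFKO minus IR/FoxO1 floxed on the y axis (both log2 ± SE), in refed and fasted mice, which share no mice between the axes. Orange points are those whose x and y values differed from each other (adjusted p under 0.05), and the dashed line marks equal values. In fasted mice the points run from -2.15 to 0.50 along x and from -0.20 to 0.67 along y.

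In the kynurenine route of tryptophan, 4 of 5 genes fell in fasted LIRKO mice, 2 of 5 refed and 4 of 5 after glucose, where 3.92%, 4.66% and 3.91% of all genes fell. Afmid, kynurenine formamidase, which frees kynurenine from its formyl form, was lower in LIRKO livers in every state. In fasted livers it read 8.51, 8.75 and 8.21 in LIRKO mice, against 10.18, 9.73, 10.52 and 10.05 in IR floxed mice (-1.64 ± 0.25, 3.13-fold, adjusted p = 0.00014). In refed livers it read 8.19, 7.85, 7.97 and 8.50 in LIRKO mice, against 9.15, 9.58, 9.52 and 10.01 in IR floxed mice (-1.43 ± 0.23, adjusted p = 9.48e-05). After glucose the values were 7.34, 8.18 and 7.52 in LIRKO mice, against 8.78, 10.36 and 9.23 in IR floxed mice (-1.61 ± 0.27, adjusted p = 0.000395). In none of the 3 states did a LIRKO mouse reach the lowest IR floxed mouse. LIRFKO livers read 10.21, 10.53 and 10.89 fasted, 9.88, 9.82, 9.74 and 10.12 refed and 9.97, 9.23 and 9.23 after glucose, above every LIRKO mouse of the same state (2.11 ± 0.27, 1.78 ± 0.23 and 1.72 ± 0.27, adjusted p = 1.38e-05, 9.43e-06 and 0.000195). IR/FoxO1 floxed livers read 9.85, 9.69 and 10.07 refed and 10.38, 10.15 and 10.38 fasted, so LIRFKO and its floxed line overlapped refed and fasted (-0.08 ± 0.26 and 0.31 ± 0.29).

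Haao, the dioxygenase that opens the ring of 3-hydroxyanthranilate, followed the same order. It read 12.85, 12.57 and 12.30 in fasted LIRKO mice, against 13.56, 13.34, 13.59 and 13.69 in IR floxed mice (-0.95 ± 0.17, adjusted p = 0.000717), and the difference was -0.94 ± 0.16 refed and -0.78 ± 0.18 after glucose (adjusted p = 0.000133 and 0.00656). LIRFKO livers read 13.70, 13.57 and 13.71 fasted, 1.11 ± 0.18 above LIRKO, and stood 0.86 ± 0.16 refed and 1.04 ± 0.18 after glucose above it (adjusted p = 0.000291, 0.000692 and 0.000587). No LIRKO mouse reached the lowest mouse of either group it was set against in the same state. Kynu, kynureninase, read 8.58, 9.46 and 8.54 in fasted LIRKO mice, against 9.51, 9.51, 10.16 and 10.45 in IR floxed mice (-1.12 ± 0.24, adjusted p = 0.00301), and fell by 0.96 ± 0.25 after glucose (adjusted p = 0.0156), with no overlap in either state. LIRFKO against LIRKO gave no call for Kynu. Tdo2, the dioxygenase that commits tryptophan to this route, read 11.49, 11.25 and 10.47 after glucose in LIRKO mice, against 13.66, 12.22 and 12.39 in IR floxed mice (-1.87 ± 0.32, 3.66-fold, adjusted p = 0.000496). In fasted mice the groups overlapped through IR.KO_Fast_545 at 12.52, and the difference was -1.14 ± 0.30 (adjusted p = 0.0187). In LIRFKO livers Tdo2 read 11.17, 10.95 and 11.94 after glucose and 12.25, 11.67 and 11.91 fasted, overlapping LIRKO with no call, and Kmo, the monooxygenase between Afmid and Kynu, changed in no comparison. Calls were lost with 1 library left out for Kynu (0.0639 without IR.KO_Fast_505 in fasted mice, 0.0952 without IR.fl_GTT_699 after glucose) and for fasted Tdo2 (0.287 without IR.KO_Fast_505).

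**Figure D3:**
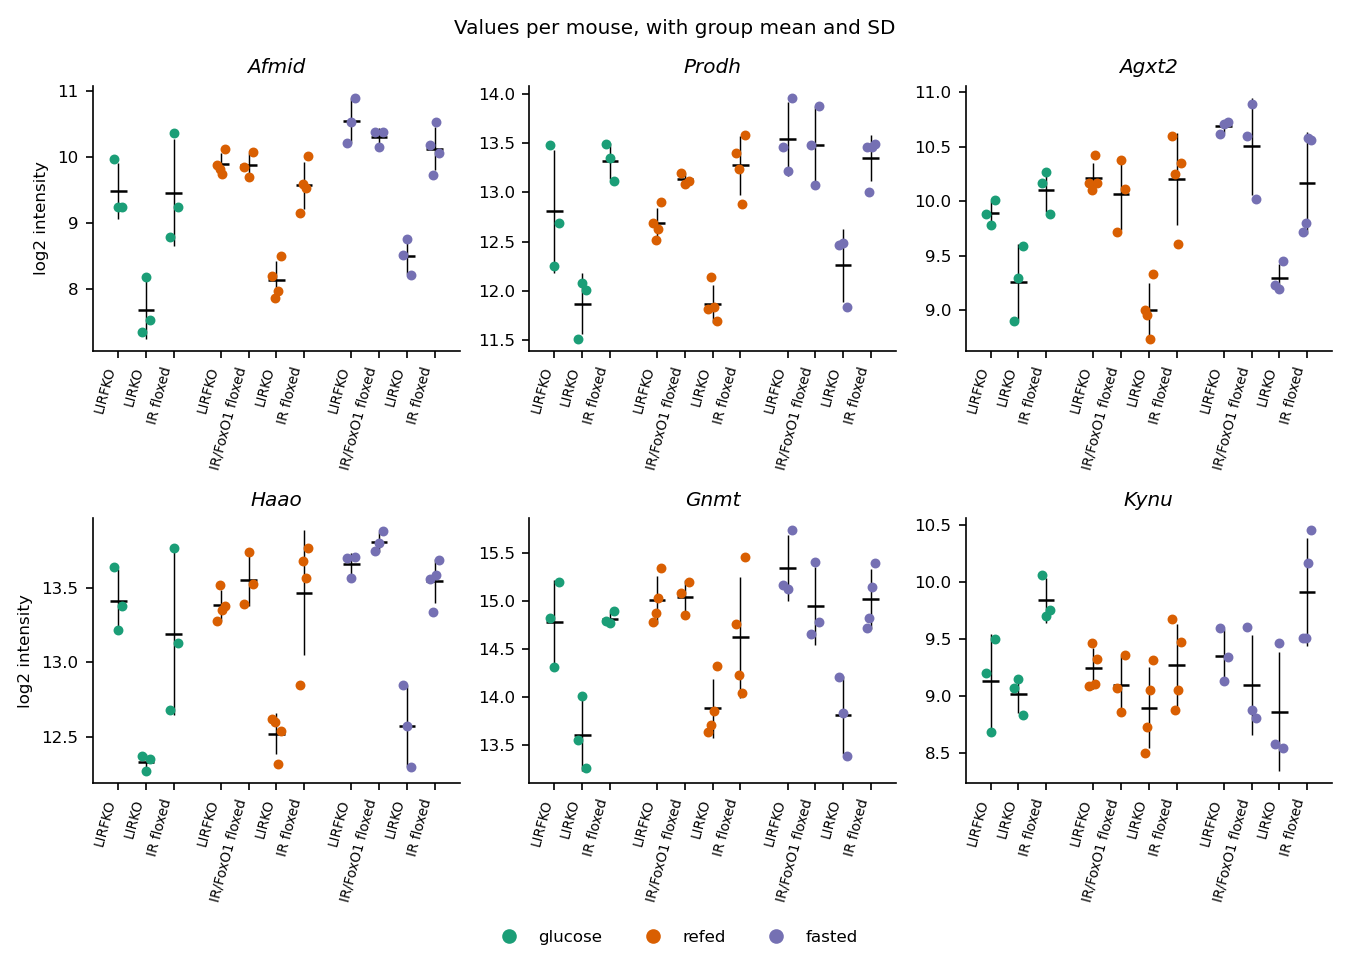
Log2 intensity per mouse (points) for Afmid, Prodh, Agxt2, Haao, Gnmt and Kynu, with group mean (bar) and SD (line), by genotype within the glucose, refed and fasted states; each panel has its own y axis, which does not start at 0. The LIRKO groups lie lowest in every state for Afmid, at 7.34 to 8.75, where LIRFKO mice run from 9.23 to 10.89.

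In proline breakdown the mitochondrial proline dehydrogenase gene Prodh fell in all 3 states. It read 11.81, 12.14, 11.83 and 11.69 in refed LIRKO mice, against 13.40, 13.24, 12.88 and 13.58 in IR floxed mice (-1.47 ± 0.20, 2.77-fold, adjusted p = 8.23e-06). Fasted and glucose differences were -1.11 ± 0.22 and -1.49 ± 0.23 (adjusted p = 0.00155 and 0.000157), with no overlap in any state. LIRFKO livers read 12.69, 12.52, 12.63 and 12.90 refed, between LIRKO and the IR/FoxO1 floxed mice at 13.20, 13.09 and 13.12. They stood 0.89 ± 0.20 above LIRKO refed, 1.26 ± 0.23 fasted and 0.96 ± 0.23 after glucose (adjusted p = 0.00428, 0.000978 and 0.00881), while the refed difference from IR/FoxO1 floxed mice was -0.46 ± 0.22 (adjusted p = 0.476). Prodh2, the hydroxyproline dehydrogenase gene, fell in fasted LIRKO mice (-0.53 ± 0.15, adjusted p = 0.0276) and was higher in fasted LIRFKO than in LIRKO mice (0.60 ± 0.16, adjusted p = 0.0218). Aldh4a1, a dehydrogenase further along both routes, was higher in LIRFKO than in LIRKO mice fasted (0.80 ± 0.21, adjusted p = 0.018) and after glucose (0.88 ± 0.21, adjusted p = 0.00936), and was not called in LIRKO against IR floxed mice. Calls were lost with 1 library left out for Prodh after glucose against LIRKO (0.122 without IR.KO_GTT_697), for Prodh2 (0.19 without IR.KO_Fast_505 in LIRKO, 0.212 without IRF.KO_Fast_518 in LIRFKO) and for Aldh4a1 (0.247 without IR.KO_Fast_550 fasted, 0.128 without IRF.KO_GTT_725 after glucose).

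Of the genes for glyoxylate aminotransferases, Agxt2 changed and Agxt was called in no comparison. The Agxt2 enzyme also handles beta-aminoisobutyrate and methylated arginines. It read 9.0, 8.96, 8.74 and 9.33 in refed LIRKO mice, against 10.60, 10.25, 9.61 and 10.35 in IR floxed mice (-1.25 ± 0.18, 2.39-fold, adjusted p = 2.16e-05). Fasted values were 9.23, 9.20 and 9.45 in LIRKO mice, against 9.72, 9.80, 10.58 and 10.56 in IR floxed mice (-0.98 ± 0.20, adjusted p = 0.00217), and the glucose difference was -0.88 ± 0.21 (adjusted p = 0.00829). The LIRKO mice lay below all IR floxed mice in each state. LIRFKO livers read 10.17, 10.10, 10.42 and 10.17 refed and 10.62, 10.71 and 10.73 fasted, 1.24 ± 0.18 and 1.44 ± 0.21 above LIRKO (adjusted p = 4.79e-05 and 7.61e-05), and 0.73 ± 0.21 above it after glucose (adjusted p = 0.0306). Both glucose calls were lost without IR.KO_GTT_697 (adjusted p = 0.0532 against IR floxed mice and 0.306 for LIRFKO against LIRKO).

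Methionine and transsulfuration genes changed at several steps. Gnmt, the abundant methyltransferase that uses up excess S-adenosylmethionine, read 14.21, 13.84 and 13.39 in fasted LIRKO mice, against 14.72, 14.83, 15.15 and 15.40 in IR floxed mice (-1.29 ± 0.24, 2.44-fold, adjusted p = 0.000907). After glucose the difference was -1.34 ± 0.25 (adjusted p = 0.00109), and both states were without overlap. In refed mice the groups overlapped, at 13.64, 13.71, 13.86 and 14.32 in LIRKO mice, against 14.76, 14.23, 14.04 and 15.46 in IR floxed mice (-0.80 ± 0.22, adjusted p = 0.0136), and within the 3 slides that held both groups the difference was -1.10, -0.91 and 0.09. LIRFKO livers stood above LIRKO by 1.68 ± 0.25 fasted, 1.19 ± 0.22 refed and 1.26 ± 0.25 after glucose (adjusted p = 9.65e-05, 0.00067 and 0.00224), with every mouse above every LIRKO mouse.

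Bhmt, which remethylates homocysteine with betaine, read 13.64, 12.50, 12.60 and 13.81 in refed LIRKO mice, against 15.87, 14.12, 13.75 and 15.90 in IR floxed mice (-1.98 ± 0.56, adjusted p = 0.0185). In fasted mice it read 14.04, 15.45 and 11.33 in LIRKO mice, against 15.88, 15.64, 15.14 and 15.96 in IR floxed mice (-2.15 ± 0.61, adjusted p = 0.0264), with overlap in both states. In each state 2 of the 4 IR floxed mice were at the ceiling, so both differences may be understated. All LIRFKO mice were at the top of the range fasted and refed, so Bhmt there was at least 5.02-fold higher than in LIRKO fasted (means 15.93 and 13.61, adjusted p = 0.0112) and at least 6.96-fold higher refed (means 15.94 and 13.14, adjusted p = 0.000901). After glucose all IR floxed mice were there, and LIRKO mice, at 13.61, 13.23 and 15.60, averaged at least 3.42-fold lower, without passing (adjusted p = 0.0659). A further Bhmt probe of lower mean (13.97), with 1 library at the top of the range, gave LIRFKO minus LIRKO differences of 2.29 fasted, 2.61 refed and 1.53 after glucose, and LIRKO minus IR floxed differences of -2.44, -2.04 and -2.37.

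Both genes of transsulfuration were higher in LIRFKO than in LIRKO mice fasted and after glucose. Cth, cystathionine gamma-lyase, read 10.99, 11.49 and 10.53 after glucose in LIRKO mice, against 13.10, 13.19 and 12.29 in IR floxed mice (-2.08 ± 0.43, 4.24-fold, adjusted p = 0.00265), and 12.08, 11.62 and 11.33 fasted, against 12.68, 12.66, 13.27 and 13.96 (-1.55 ± 0.41, adjusted p = 0.0165). LIRFKO livers read 12.91, 12.66 and 13.28 after glucose and 13.38, 13.29 and 13.29 fasted, 2.10 ± 0.43 and 1.82 ± 0.43 above LIRKO (adjusted p = 0.00285 and 0.00948). Neither comparison overlapped in these states, whereas refed LIRKO mice spread from 11.11 to 13.37. Cbs was not called in LIRKO against IR floxed mice, yet stood higher in LIRFKO than in LIRKO mice throughout. It read 14.66, 14.60 and 15 after glucose in LIRFKO mice, against 13.59, 13.88 and 13.33 in LIRKO mice (1.17 ± 0.17, 2.24-fold, adjusted p = 7.65e-05). Refed values were 13.85, 14.39, 13.93 and 14.23 in LIRFKO mice, against 13.30, 12.92, 13.21 and 12.83 in LIRKO mice (1.05 ± 0.15, adjusted p = 2.4e-05), and the fasted difference was 0.96 ± 0.17 (adjusted p = 0.000755), each without overlap.

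Several calls of the methionine genes were lost with 1 library left out. They were Gnmt refed in LIRKO (adjusted p = 0.216 without IR.fl_Refed_562) and after glucose in LIRFKO against LIRKO (0.0634 without IRF.KO_GTT_725). Bhmt lost them in LIRKO (0.301 without IR.KO_Fast_550 fasted, 0.141 without IR.fl_Refed_562 refed) and fasted in LIRFKO against LIRKO (0.315 without IR.KO_Fast_550). Cth lost its fasted calls (0.123 without IR.fl_Fast_486 in LIRKO, 0.0942 without IR.KO_Fast_550 in LIRFKO against LIRKO) and its glucose call against LIRKO (0.06 without IRF.KO_GTT_725). The Cbs calls in LIRFKO against LIRKO held without each library.

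Of the urea cycle genes, 5 of 6 fell in LIRKO mice after glucose (median -1.23), with 1 of 6 fasted and 1 of 6 refed. Of all genes, 3.91% fell after glucose, 3.92% fasted and 4.66% refed. Whether the glucose effect differs from that in the other states was not tested. Cps1, which makes carbamoyl phosphate from ammonia, read 12.59, 12.16 and 11.06 in glucose LIRKO mice, against 14.12, 12.23 and 13.48 in IR floxed mice (-1.47 ± 0.35, adjusted p = 0.00841), with overlap. Arg1, arginase, read 13.55, 13.04 and 12.68 in LIRKO mice, against 14.86, 13.62 and 14.76 in IR floxed mice (-1.47 ± 0.30, adjusted p = 0.00238), and Asl, argininosuccinate lyase, read 12.78, 12.79 and 12.62, against 14.57, 13.37 and 13.87 (-1.33 ± 0.31, adjusted p = 0.00701). Neither Arg1 nor Asl overlapped. Nags, which makes the activator of Cps1, fell by 1.13 ± 0.21 (adjusted p = 0.00112) and Ass1, argininosuccinate synthase, by 0.83 ± 0.22 (adjusted p = 0.0181). Otc, ornithine transcarbamylase, was not called, at 11.00, 11.85 and 9.99 in LIRKO mice, against 9.99, 12.13 and 11.63 in IR floxed mice. Outside glucose, Asl fell in fasted LIRKO mice (-1.10 ± 0.29, adjusted p = 0.0192) and Arg1 in refed ones (-0.83 ± 0.26, adjusted p = 0.0338). In LIRFKO against LIRKO mice Nags was higher after glucose (0.68 ± 0.21, adjusted p = 0.0461) and no other urea cycle gene changed. LIRFKO livers read 12.25, 11.65 and 12.44 for Cps1 and 13.54, 12.71 and 12.75 for Asl after glucose, overlapping the LIRKO values.

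Calls of urea cycle genes lost with 1 library left out were those of Cps1 (0.114 without IR.fl_GTT_699), Asl (0.0762 without IR.fl_GTT_699 after glucose, 0.121 without IR.fl_Fast_486 fasted), Ass1 (0.133 without IR.KO_GTT_690), refed Arg1 (0.218 without IR.KO_Refed_553) and Nags in LIRFKO against LIRKO (0.309 without IR.KO_GTT_690). That Nags call also failed with slide as a block (0.0682) and without IRF.fl_Fast_523 in any fit (0.05). After glucose the summed hepatocyte markers (5 of 6 measured) lay at 16.80 to 17.54 in LIRKO mice, against 17.61 to 17.68 in IR floxed mice. The summed Kupffer cell markers lay at 12.42 to 13.08 in LIRKO mice, against 11.44 to 12.10 in IR floxed mice, with 1 of 7 called higher (Marco). The part of either in the glucose results was not tested.

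**Figure D4:**
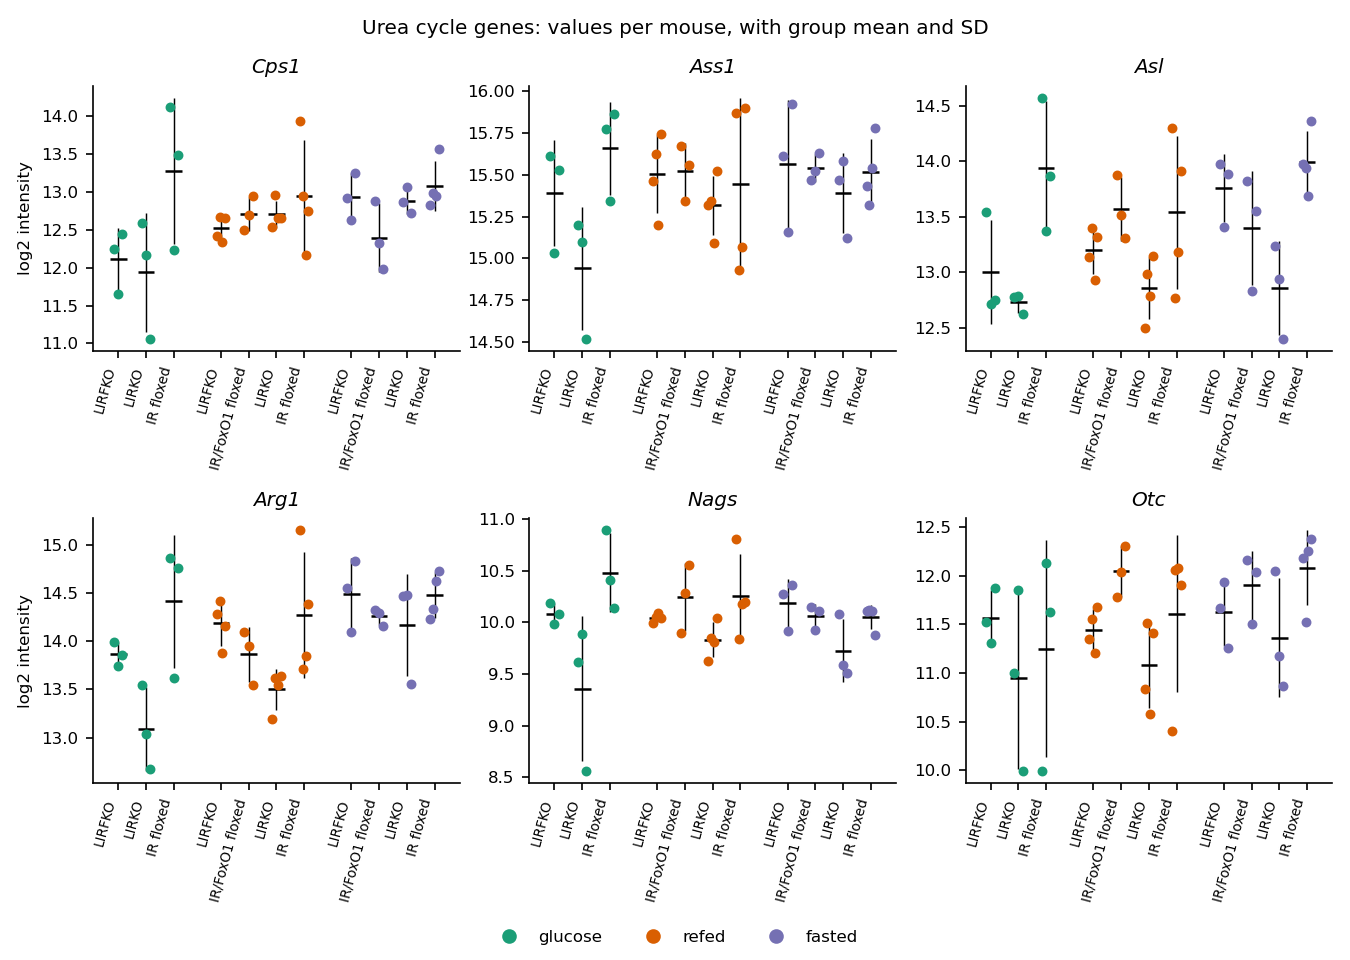
Log2 intensity per mouse (points) for Cps1, Ass1, Asl, Arg1, Nags and Otc, with group mean (bar) and SD (line), by genotype within the glucose, refed and fasted states; each panel has its own y axis, which does not start at 0. After glucose the LIRKO means lie below the IR floxed means in the first 5 panels, while Otc spreads from 9.99 to 12.13 in both groups together.

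Tyrosine breakdown split by step. In refed livers the upper steps were higher in LIRKO: Hpd, which forms homogentisate, read 15.46, 15.27, 15.41 and 15.18 in LIRKO mice, against 15.26, 14.21, 14.32 and 14.54 in IR floxed mice (0.82 ± 0.17, adjusted p = 0.00167). Hgd, which opens its ring, read 13.09, 13.33, 13.05 and 13.55 in LIRKO mice, against 13.10, 11.99, 12.20 and 12.51 in IR floxed mice (0.79 ± 0.21, adjusted p = 0.0124). In both genes IR.fl_Refed_566 alone of the IR floxed mice reached the LIRKO range, and within 3 slides Hgd differed by 0.73, -0.04 and 1.56. The last steps fell instead: Gstz1, maleylacetoacetate isomerase, by 0.50 ± 0.12 (adjusted p = 0.00536) and Fah, fumarylacetoacetase, by 0.67 ± 0.14 (adjusted p = 0.00189). LIRFKO against the same refed LIRKO mice went the opposite way, with Hpd at -0.69 ± 0.17 (adjusted p = 0.0115), Hgd at -0.71 ± 0.21 (adjusted p = 0.036), Gstz1 at 0.68 ± 0.12 (adjusted p = 0.000471) and Fah at 0.47 ± 0.14 (adjusted p = 0.0426), all without overlap. Gstz1 fell in fasted LIRKO mice too (-0.43 ± 0.13, adjusted p = 0.0403) and Fah after glucose (-0.88 ± 0.17, adjusted p = 0.00114). Gstz1 was also higher in LIRFKO than in LIRKO mice fasted (0.85 ± 0.14, adjusted p = 0.000287) and after glucose (0.56 ± 0.14, adjusted p = 0.0114), and Fah after glucose (0.54 ± 0.17, adjusted p = 0.0446). Tat, which starts the route and is a classic glucocorticoid target, changed in no comparison.

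Calls of tyrosine genes lost with 1 library left out were those of Hgd (0.0667 without IR.fl_Refed_508 in LIRKO, 0.176 without IR.KO_Refed_565 in LIRFKO against LIRKO), Hpd in LIRFKO against LIRKO (0.0551 without IRF.KO_Refed_468), Gstz1 (0.189 without IR.KO_Fast_545 fasted and 0.0952 without IR.fl_Refed_562 refed in LIRKO, 0.252 without IRF.KO_GTT_725 after glucose in LIRFKO) and Fah in LIRFKO against LIRKO (0.13 without IR.KO_Refed_553 refed, 0.274 without IR.KO_GTT_690 after glucose). With slide as a block fasted Gstz1 in LIRKO (0.0707) and Hgd in LIRFKO (0.0673) did not pass, and without IRF.fl_Fast_523 in any fit Fah after glucose had an adjusted p of 0.0509. In the same refed mice 6 of 7 Kupffer cell markers were higher in LIRKO than in IR floxed livers, with a summed level of 13.21 to 13.64 in LIRKO mice, against 11.54 to 11.98 in IR floxed mice and 12.36 to 12.75 in LIRFKO mice. The summed hepatocyte markers lay at 16.26 to 17.55 in refed LIRKO mice, against 17.61 to 17.84 in IR floxed mice, and the part of either in the refed results was not tested.

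Among the remaining routes, Uroc1, urocanase of histidine breakdown, fell in LIRKO mice fasted (-0.92 ± 0.20, adjusted p = 0.00487) and refed (-0.93 ± 0.19, adjusted p = 0.00095), without overlap. It was higher in LIRFKO than in LIRKO mice fasted (0.77 ± 0.22, adjusted p = 0.0287) and after glucose (0.80 ± 0.21, adjusted p = 0.0199). Hal, histidase, the step before it, fell in fasted LIRKO mice (-1.39 ± 0.35, adjusted p = 0.013), at 11.82, 13.44 and 11.44 against 13.63, 13.18, 13.16 and 13.93 in IR floxed mice. Aass, which starts lysine breakdown, read 13.18, 12.25 and 11.58 after glucose in LIRKO mice, against 15.91, 13.65 and 14.61 in IR floxed mice (-2.51 ± 0.45, 5.69-fold, adjusted p = 0.000743), where the highest IR floxed value was at the top of the range. Mccc1, of leucine breakdown, did not change in LIRKO against IR floxed mice but was higher in LIRFKO than in LIRKO mice in all states (0.79 ± 0.18 fasted, 0.63 ± 0.16 refed and 0.76 ± 0.18 after glucose, adjusted p = 0.00811, 0.0119 and 0.0101).

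Gpt2, the mitochondrial alanine aminotransferase, read 11.71, 11.86 and 11.73 after glucose in LIRKO mice, against 13.42, 12.55 and 12.69 in IR floxed mice (-1.32 ± 0.24, 2.5-fold, adjusted p = 0.000709). In fasted mice its difference was -0.79 ± 0.22 (adjusted p = 0.0261), and in refed mice it was higher in LIRFKO than in LIRKO (0.66 ± 0.20, adjusted p = 0.0446). Calls of this and the preceding routes lost with 1 library left out were those of Uroc1 (0.0746 without IR.KO_Fast_550 fasted in LIRKO, 0.465 without IR.KO_Fast_550 and 0.325 without IR.KO_GTT_697 in LIRFKO against LIRKO), Hal (0.256 without IR.KO_Fast_505), Mccc1 (0.161 without IR.KO_Fast_550 fasted, 0.278 without IR.KO_GTT_697 after glucose) and Gpt2 (0.534 without IR.KO_Fast_505 fasted, 0.194 without IRF.KO_Refed_468 refed). The refed Gpt2 call also failed with slide as a block (0.0657).

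Refeeding for 6 h changed few members. In IR floxed mice 2 of 36 fell and 0 rose (median -0.25), where 1.49% of all genes fell and 2.12% rose (3.61% changed). In IR/FoxO1 floxed mice 2 fell and 0 rose (median -0.13), against 1.52% and 2.02% (3.54% changed). In LIRFKO mice 1 fell and 0 rose (median -0.32), against 0.823% and 0.987% (1.81% changed), and in LIRKO mice 0 changed (median -0.05), where 0.867% of all genes fell and 0.983% rose (1.85% changed). Got1, the cytosolic aspartate aminotransferase, read 14.58, 11.88, 11.29 and 12.50 in refed IR floxed mice, against 14.40, 14.63, 14.20 and 14.87 fasted (-1.90 ± 0.48, 3.73-fold, adjusted p = 0.0228). In IR/FoxO1 floxed mice it read 13.53, 13.25 and 11.34 refed, against 14.62, 14.23 and 14.37 fasted (-2.04 ± 0.55, 4.11-fold, adjusted p = 0.0339). Refed IR.fl_Refed_566 stayed within the fasted range, while the IR/FoxO1 floxed groups did not overlap. In LIRFKO mice Got1 read 13.62, 13.74, 12.90 and 13.67 refed, against 15.06, 14.64 and 14.94 fasted, also without overlap (-1.38 ± 0.51, adjusted p = 0.181), and in LIRKO mice 13.52, 14.62, 14.28 and 14.49 refed, against 14.45, 14.35 and 13.54 fasted (-0.03 ± 0.55, adjusted p = 0.993).

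Gpt2 read 11.22, 11.83, 11.71 and 11.90 in refed IR floxed mice, against 12.38, 12.83, 12.88 and 12.94 fasted, without overlap (-1.05 ± 0.21, 2.07-fold, adjusted p = 0.0038), and this call held without each library. Cbs read 13.58, 13.48 and 13.75 in refed IR/FoxO1 floxed mice, against 14.18, 14.39 and 13.89 fasted (-0.66 ± 0.17, adjusted p = 0.0256). Prodh read 12.69, 12.52, 12.63 and 12.90 in refed LIRFKO mice, against 13.46, 13.22 and 13.96 fasted (-0.82 ± 0.21, adjusted p = 0.0432), and neither of these overlapped. With 1 library left out the calls of Got1 (0.208 without IR.fl_Refed_506 in IR floxed, 0.338 without IRF.fl_Refed_467 in IR/FoxO1 floxed mice), Cbs (0.234 without IRF.fl_Fast_523) and Prodh (0.173 without IRF.KO_Fast_525) were lost, so the counts in IR/FoxO1 floxed and LIRFKO mice went to 0. Without IRF.fl_Fast_523 in any fit Got1 in IR/FoxO1 floxed mice had an adjusted p of 0.09, and with slide as a block Prodh had 0.0677. With only the compared groups in the fit 0, 1 and 0 members passed in IR floxed, IR/FoxO1 floxed and LIRFKO mice. The difference of the refeeding response between genotypes was called for 0 members in each of 3 tests by limma. The tests were LIRKO minus IR floxed, LIRFKO minus IR/FoxO1 floxed and LIRFKO minus LIRKO, where 0.165%, 0.00445% and 0.0222% of all genes changed. An unadjusted p under 0.05 was found for 6, 2 and 3 of 36 members, against 1784, 912 and 1321 of all 22485 genes.

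**Figure D5:**
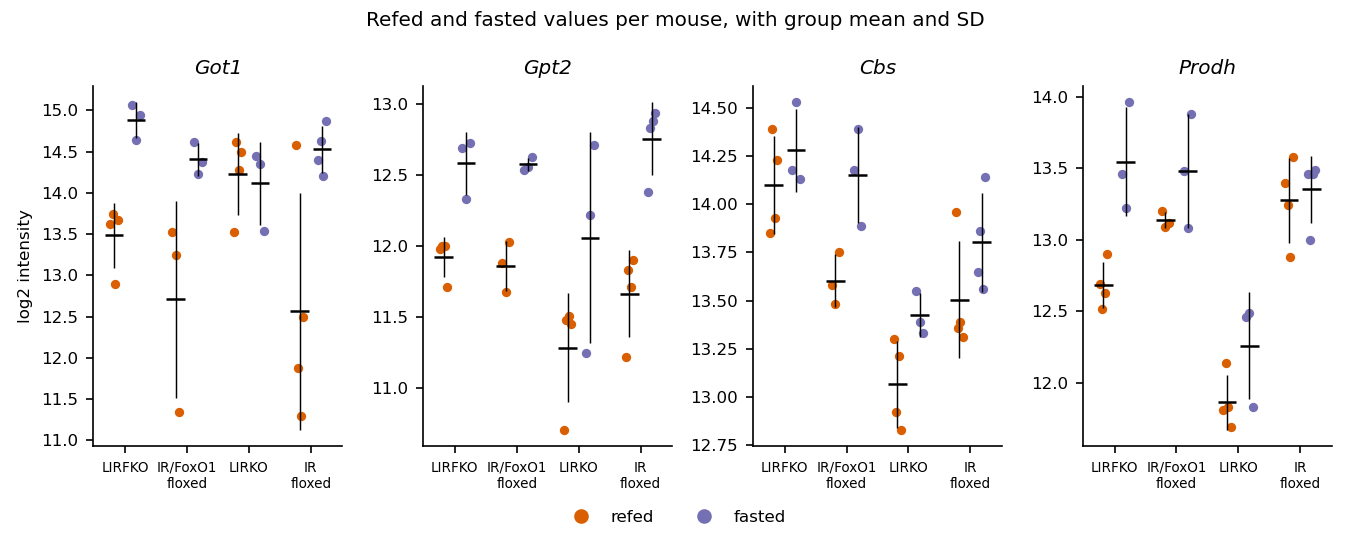
Log2 intensity per mouse (points) of Got1, Gpt2, Cbs and Prodh in refed and fasted livers of the 4 genotypes, with group mean (bar) and SD (line); each panel has its own y axis, which does not start at 0. Refed and fasted mice separate for Got1 and Gpt2 in LIRFKO and IR/FoxO1 floxed mice, and overlap for both genes in LIRKO mice. In IR floxed mice they separate for Gpt2 and overlap for Got1 through IR.fl_Refed_566. The difference of the refeeding response between genotypes was called for neither gene.

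Glucose for 60 min changed 0 of 36 members in each genotype by limma, where 0.654% of all genes changed in LIRFKO, 0.596% in LIRKO and 0.16% in IR floxed mice. The medians were -0.42, -0.31 and 0.00. An unadjusted p under 0.05 was found for 15, 9 and 3 of 36 members, against 2763, 2533 and 1911 of all 22485 genes. The smallest adjusted p was that of Afmid in LIRFKO, which read 9.97, 9.23 and 9.23 after glucose, against 10.21, 10.53 and 10.89 fasted (-1.08 ± 0.26, adjusted p = 0.0527), without overlap. In LIRKO mice Arg1 came nearest, at 13.55, 13.04 and 12.68 after glucose, against 14.47, 14.48 and 13.56 fasted (-1.15 ± 0.32, adjusted p = 0.0901). In IR floxed mice Arg1 differed by 0.02 ± 0.30 (adjusted p = 0.996). Without IR.fl_GTT_659 in IR floxed mice 4 members passed, without IRF.KO_GTT_726 in LIRFKO 2, and without IR.KO_GTT_697 in LIRKO 1. The fasted mice of a genotype serve both its refeeding and its glucose comparison.

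A wider set of amino acid genes, 69 measured of 73 listed and not among the members, was counted beside them. In LIRKO against IR floxed mice 19 of 69 fell and 0 rose fasted (27.5% fell, against 41.7% of members and 3.92% of all genes). Refed, 16 fell and 4 rose (23.2% and 5.8%, against 4.66% and 6.95% of all genes), and after glucose 14 fell and 0 rose (20.3% fell, against 44.4% of members and 3.91% of all genes). Whether the shares of the sets differ was not tested. Among them Ido2, a tryptophan dioxygenase paralog, differed by -1.43 ± 0.19 fasted (adjusted p = 2.02e-05), -1.14 ± 0.18 refed and -1.01 ± 0.20 after glucose. Mpst, a sulfurtransferase of cysteine breakdown, differed by -1.27 ± 0.18 fasted and -1.25 ± 0.16 refed (adjusted p = 3.94e-05 and 5.64e-06). Dmgdh and Sardh, which oxidise the methyl groups of choline to glycine, and Ivd, of leucine breakdown, also fell fasted (-1.11 ± 0.21, -0.98 ± 0.19 and -0.81 ± 0.12). In refed mice the mitochondrial glutamate carrier Slc25a22 was higher (1.41 ± 0.26, adjusted p = 0.000368). LIRFKO against LIRKO gave 21 higher and 2 lower fasted (30.4% and 2.9%, against 3.29% and 3.23% of all genes), 19 and 2 refed (27.5% and 2.9%, against 3.66% and 4.43%), and 20 and 2 after glucose (29.0% and 2.9%, against 3.85% and 3.73%).

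Within that wider set, branched-chain and propionate genes counted 5 of 20 lower in LIRKO than in IR floxed mice fasted, 5 of 20 lower and 1 higher refed, and 4 of 20 lower after glucose. Sulfur amino acid genes counted 5, 4 and 3 of 8 lower, and serine, glycine and one-carbon genes 3 of 8 in each state, with 0 higher. Of all genes, 3.92% fell fasted, 4.66% refed and 3.91% after glucose. In fasted mice the knockout effect of the double knockout was more positive than that of LIRKO for 5 of the 69 (Mpst, Ido2, Ivd, Mccc2 and Suox). It was more negative for 0, where 0.449% of all genes were more positive and 0.485% more negative. In refed mice it differed for 0 of the 69 in either direction by limma, where 1.32% of all genes changed. Against IR/FoxO1 floxed mice, refed LIRFKO livers were higher for Slc25a22 (1.53 ± 0.29, adjusted p = 0.0108) and Asns, asparagine synthetase (3.28 ± 0.75, adjusted p = 0.0475), with 0 of 69 called fasted. Of all genes, 0.147% were higher and 0.231% lower refed, and 0.00445% changed fasted. The Asns mean was 8.99 in refed IR/FoxO1 floxed and 10.27 in refed IR floxed mice, a difference not called by limma (adjusted p = 0.743). Whether calls of the wider set or of the transcription factors below hold with 1 library left out is not reported here. Refeeding changed 8 of 69 in IR floxed mice (11.6%, against 3.61% of all genes), 5 in IR/FoxO1 floxed (7.25%, against 3.54%), 3 in LIRFKO (4.35%, against 1.81%) and 1 in LIRKO mice (1.45%, against 1.85%). Slc25a22 fell in IR floxed and IR/FoxO1 floxed mice (-1.77 ± 0.26 and -1.73 ± 0.30), as did the amino acid transporter gene Slc38a4 (-1.05 ± 0.22 and -1.42 ± 0.26).

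Transcription factors with known roles at these genes moved in part. Klf15, which drives amino acid catabolic genes in fasted liver, fell on refeeding in IR floxed and IR/FoxO1 floxed mice (-1.19 ± 0.24 and -1.34 ± 0.28, adjusted p = 0.00491 and 0.00559). Cebpb fell in IR floxed, IR/FoxO1 floxed and LIRKO mice (-1.39 ± 0.19, -1.29 ± 0.22 and -1.0 ± 0.22). Ppargc1a, a fasting-induced coactivator, fell on refeeding in IR floxed mice (-1.83 ± 0.38, adjusted p = 0.00589) and was higher in refed LIRKO than in refed IR floxed mice (1.68 ± 0.38, adjusted p = 0.00296), a pair of comparisons that share the refed IR floxed mice. The bile acid receptor gene Nr1h4 was lower in LIRKO than in IR floxed mice fasted and refed (-0.65 ± 0.14 and -0.98 ± 0.13) and higher in LIRFKO than in LIRKO mice (0.69 ± 0.15 and 0.81 ± 0.13). Hnf4a was lower in LIRKO mice refed (-0.42 ± 0.13) and after glucose (-0.51 ± 0.15), and the glucocorticoid receptor gene Nr3c1 refed (-0.56 ± 0.13). Cebpa was higher in LIRFKO than in LIRKO mice fasted (0.92 ± 0.27, adjusted p = 0.0393) and after glucose (1.14 ± 0.27, adjusted p = 0.00899), and Atf4 was higher refed (0.57 ± 0.14) and lower after glucose (-0.84 ± 0.16).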

How the data were processed

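Liver RNA of 37 male mice in 11 groups was measured on 2-colour arrays, with a separate mouse in each channel. The deposited values are log2 intensities, 1 column a channel, per the labels and the values (5.07 to 16.0). Per the submitters' processing notes, R (3.1.0) and limma (3.20.1) were used by the authors. How background was corrected and arrays normalized is not given in the sources used here. Scanner files were not used here.

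Of 45220 features, 33026 carried 1 gene symbol and 12194 none, and each of the 22485 genes was taken from its probe of highest mean. limma 3.58.1 (R 4.3.3, statmod 1.5.0) was fitted over all 11 groups with dye as a covariate and array as a random block (correlation 0.358), with eBayes and Benjamini-Hochberg adjustment over all genes at 0.05. The fit was tested on simulated data. Replicates are separate mice by number, and their number limits the precision.

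The members and lists were chosen with earlier results of these data known. Members that passed were named. Of the other genes and regulators, those of smallest p were named, up to 6 a comparison. Values in every mouse were given mainly for members called in at least 2 comparisons. Alternatives concerned the array, dye and slide terms, the probes, the level filter, quantile normalization, the eBayes trend, the samples in the fit and single libraries. One LIRFKO library whose labels conflict was left out.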

Additional observations from a re-analysis of the deposited data

Results flagged for a closer look

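In the 4 groups of 4 mice, 144 combinations of member and group were examined for a mouse far from the others, and 9 were found, where chance gives about 1 in 20. In refed LIRFKO mice Got1 was 12.90 in IRF.KO_Refed_524 (the others 13.62 to 13.74) and Gpt2 was 11.71 in IRF.KO_Refed_469 (11.98 to 12.00). In refed LIRKO mice Gpt2 was 10.71 in IR.KO_Refed_553 (11.45 to 11.51) and Gstz1 was 13.50 in IR.KO_Refed_564 (13.79 to 13.81), which is 1 of the 2 libraries lowest in albumin signal. In refed IR floxed mice IR.fl_Refed_566 stood apart in Otc, at 10.40 (11.90 to 12.08), and in Cbs, at 13.96 (13.31 to 13.39). In fasted IR floxed mice IR.fl_Fast_552 stood apart in Gpt, cytosolic alanine aminotransferase, at 10.23 (13.28 to 13.61), and in Prodh, at 13 (13.46 to 13.49), and IR.fl_Fast_486 in Nags, at 9.88 (10.11 to 10.12).

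The effect of the knockout differed between LIRFKO and LIRKO, each set against its own floxed line, for 7 combinations of member and state by limma. In refed mice the difference of effects was 1.47 for Agxt2, 1.35 for Afmid and 1.03 for Cbs. In fasted mice it was 1.95 for Afmid, 1.82 for Gnmt, 1.52 for Kynu and 1.24 for Agxt2. All 7 were positive. For Afmid, Agxt2, Gnmt and Kynu the LIRKO effect was called negative in that state and the LIRFKO effect was not called, while for Cbs neither effect was called by itself.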

How the results depend on the processing

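Over 94 member calls and their alternatives, 1412 of 1723 values kept direction and call, 311 kept direction and lost the call, and 0 changed direction. Of the 94 calls, 47 held without each library in turn and 19 held under every other alternative. Losses were 72 with only the groups compared in the fit, 25 without the array term, 13 without the dye term, 6 with slide as a block, 5 without IRF.fl_Fast_523, 5 after renewed quantile normalization, 2 with an eBayes trend, and 0 with the mean of all probes or only genes above the median level. Of the 2 alternatives added after seeing the data, leaving out the 3 libraries highest in acinar markers lost 14 and leaving out the 2 lowest in albumin lost 8.

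With only the groups compared, counts of members became 1 fasted, 7 refed and 0 after glucose for LIRKO against IR floxed, 1 fasted and 0 after glucose for LIRFKO against LIRKO, 1 for the fasted difference of knockout effects, and 0, 1 and 0 for refeeding in IR floxed, IR/FoxO1 floxed and LIRFKO mice. This fit has fewer samples and so fewer degrees of freedom, and it also leaves out the array term. The parts of these in the lost calls were not separated. The fasted difference of effects held 2 members without the array term, without the dye term and without the acinar-high libraries. Refeeding in IR/FoxO1 floxed mice gave 0 without the array term, the dye term or IRF.fl_Fast_523 and 1 without the albumin-low libraries. Refeeding in LIRFKO gave 0 without the array or dye term, with slide as a block, after quantile normalization and without the acinar-high or albumin-low libraries, and refeeding in IR floxed mice gave 1 without the acinar-high libraries. Without the acinar-high libraries the glucose count was 3 in IR floxed and 1 in LIRFKO mice, and the fasted count of LIRKO against IR floxed was 9. The glucose count in LIRFKO was also 1 without the albumin-low libraries, with genes above the median level and with a trend. The causes were not tested.

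With each library left out in turn, refeeding counts ran from 1 to 3 in IR floxed and 0 to 1 in IR/FoxO1 floxed, LIRKO and LIRFKO mice, and glucose counts from 0 to 4 in IR floxed, 0 to 1 in LIRKO and 0 to 2 in LIRFKO mice. LIRKO against IR floxed ran from 7 to 15 fasted, 8 to 14 refed and 12 to 17 after glucose, and LIRFKO against LIRKO from 7 to 15, 9 to 14 and 3 to 13. Differences of knockout effects ran from 2 to 5 refed and 2 to 6 fasted, the fasted comparison of the floxed lines from 0 to 1, and the refeeding difference of LIRKO minus IR floxed from 0 to 1. No paired analysis was possible because groups share no replicate (mouse) numbers; mice that share an array or slide were handled by the array term and by slide as a block. Values at the top of the measuring range limit Bhmt. Over the slides that held both groups, signs were the same for every called member other than Hgd and Gnmt in refed LIRKO against IR floxed mice. Only 1 slide held both groups for LIRFKO against LIRKO fasted and after glucose. The same held for refeeding in IR/FoxO1 floxed and LIRFKO mice, so agreement between slides could not be examined in these comparisons. Differences of knockout effects were not examined within slides.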

Other observations

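The library IRF.KO_GTT_724 entered no comparison, because its title gives the glucose state and its other labels a fast. Its members lay within the range of the LIRFKO glucose mice for 18 of 36 and within that of the fasted LIRFKO mice for 15 of 36. Bhmt read 14.75 and Got1 13.77 in it.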
